A study of Xenopus laevis with 12 samples.

Results

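In the brains of Xenopus laevis tadpoles, 218 expressed genes were raised strongly after exposure to the thyroid hormone T4 while their mean level after exposure to a mixture of chemicals stayed close to that of the controls. They were selected on the measured values themselves. Counts were divided by the sum of the reads on genes of the sample, scaled to CPM (counts per 1000000 reads), and taken as log2(CPM + 0.5), and a difference is that of group means on this scale. A member had a mean of at least 1 CPM in the control group, a difference of at least 1.5 after T4 with all 4 T4 samples above all 4 control samples, and a difference of less than 0.3 in either direction after the mixture. Of 51041 genes listed, 26401 reached 1 CPM in the control group and are called expressed genes here. Of these, 265 reached the limit after T4, all without overlap between the T4 and control samples, and 218 (0.826% of the expressed genes) were also within the limit after the mixture. By edgeR's quasi-likelihood test, 14.7% of the 27141 genes tested were higher after T4 with a Benjamini-Hochberg adjusted p-value under 0.05, and all 218 members were among them. That contrast chose the members, so this count is a description.

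T4 is the main hormone that the thyroid gland releases. In tissues it is converted by deiodinases into the more active T3, which binds nuclear receptors that switch the transcription of target genes. In amphibians these hormones drive metamorphosis, and in the vertebrate brain they take part in the proliferation, migration and differentiation of neural cells.

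The brains were taken at stage NF 47, after 8 days of exposure that started at stage NF 1, and each sample was a pool of 2 brains. The 4 control samples (numbered 1 to 4) had received the solvent DMSO, which was at 0.01% in all 3 groups, the 4 mixture samples (5 to 8) a 1x amniotic mixture, which copies levels of chemicals measured in human amniotic fluid, and the 4 T4 samples (9 to 12) T4 at 10 nM. Plates were kept in the dark. According to the methods, animals came from 2 breedings and a batch effect was seen, but the labels do not say which sample belonged to which, and p-values measure only the spread between these samples. The samples are described in 2 sets, samples 1, 2, 5, 6, 9 and 10 (set 1) and the other 6 (set 2), which earlier work on these counts had separated, so that each group has 2 samples in each set.

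Gene counts summed to between 10420292 and 11685566 reads in a sample, and a count of 3, taken as the floor, was at most 0.288 CPM. Of the 218 members, 3 had a sample at or under the floor. The genes are listed by number, and 0 numbers could be matched to a name or a sequence, so that the roles of the members and the markers of cell types were not analysed here. Only 2 members are given by number, the one with the largest difference after T4 and the one with the highest control level. X. laevis has an L and an S copy of many genes, and where these are near-identical their counts are uncertain. In whole brains, more cells that express a gene and more RNA per cell cannot be told apart.

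Together the members took a small part of the reads in the control group and over 3 times as much after T4. In the control samples 1 to 4 they held 0.237%, 0.318%, 0.249% and 0.247% of the reads on genes. In the mixture samples 5 to 8 they held 0.309%, 0.290%, 0.230% and 0.276%, and in the T4 samples 9 to 12 they held 0.874%, 0.895%, 1.01% and 0.965%. The T4 samples lay far above the other groups, and the mixture samples spread to both sides of the control mean. Group means were 0.263% ± 0.0370 in the control, 0.276% ± 0.0337 in the mixture and 0.936% ± 0.0635 in the T4 group (SD, n = 4), a ratio to the control of 1.05 after the mixture and of 3.56 after T4. The 95% Wilson interval, which covers counting error only, ran from 0.314% to 0.321% in control sample 2 and from 0.234% to 0.240% in control sample 1, so these samples of the same group differed by more than counting error.

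**Figure D1:**
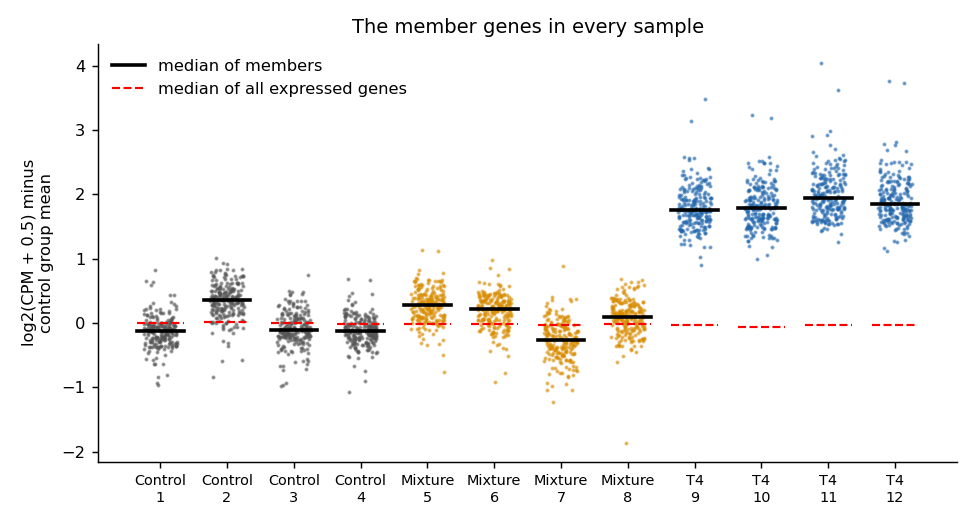
Each point is a member gene in a sample, as log2(CPM + 0.5) minus its control group mean (vertical axis), for the 12 samples (horizontal axis), with the median over the members as a black bar and the median over all expressed genes as a red dashed line. The medians of the members are between 1.75 and 1.95 in the T4 samples, 0.36 in control sample 2 and −0.27 in mixture sample 7, while those of all expressed genes stay between −0.06 and 0.02.

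In the members, control sample 2 and mixture sample 7 lay farthest from the rest of their groups. Only control sample 2 passed a Dixon test for a single outlier on the share of reads and on the median of the members. The median of the members against the control mean was 0.36 in control sample 2 and −0.13, −0.11 and −0.12 in the control samples 1, 3 and 4. It was −0.27 in mixture sample 7 and 0.28, 0.21 and 0.10 in the mixture samples 5, 6 and 8. The 4 T4 samples were closer together, at 1.75, 1.79, 1.95 and 1.84. Over all expressed genes the same median was between −0.06 and 0.02 in every sample. Control sample 2 was the highest control in 166 members (76.1%, against 27.7% of the expressed genes) and mixture sample 7 the lowest mixture sample in 171 (78.4%, against 29.6%). Most of the main results that rest on these samples are given with and without them, but the selection within a single set is not.

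The member with the largest difference after T4 was gene3489. Its level was 12.1, 11.9, 10.3 and 9.21 CPM in the control samples, 19.5, 15.02, 12.1 and 8.99 CPM in the mixture samples and 126.7, 102.8, 186.4 and 149.8 CPM in the T4 samples. The lowest T4 sample was thus far above every other sample, and the mixture samples overlapped with the controls, with the 2 of set 1 above them. The means were 10.9 ± 1.39, 13.9 ± 4.47 and 141.4 ± 35.6 CPM (SD, n = 4), a 13.0-fold higher mean after T4. The difference of gene3489 on the log2(CPM + 0.5) scale was 3.61, with 3.19 in set 1 and 4.03 in set 2, and edgeR's log2 fold change was 3.73 with a standard error of 0.22. Its difference after the mixture was 0.29, just inside the limit, with 0.49 in set 1 and 0.09 in set 2. After the mixture edgeR's log2 fold change, for the same contrast that the selection limited, was 0.37 with a standard error of 0.24.

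The member next in order had nearly as large a difference, 3.44, from a lower level. It was at 3.88, 4.41, 4.09 and 3.76 CPM in the control samples, at 9.40, 5.38, 3.25 and 3.68 CPM in the mixture samples and at 39.3, 42.2, 55.6 and 61.4 CPM in the T4 samples. Like gene3489, it had its highest mixture value in sample 5 and higher T4 values in set 2, and its difference after the mixture was 0.28. That mixture difference was 0.72 in set 1 and −0.16 in set 2, and edgeR's log2 fold change after the mixture was 0.45 with a standard error of 0.29. This member and gene3489 were the only 2 members with a T4 difference of at least 3, out of 5 such expressed genes. The lowest T4 sample of this member was 8.91 times its highest control sample, the widest gap among the members.

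The member with the highest control level was gene42841. It was at 234.7, 268.0, 247.6 and 263.9 CPM in the control samples, at 272.6, 246.8, 228.0 and 231.1 CPM in the mixture samples and at 696.0, 807.2, 709.1 and 789.4 CPM in the T4 samples. Every T4 sample was well above the control and mixture samples, which overlapped. The means were 253.5 ± 15.4, 244.7 ± 20.4 and 750.4 ± 56.0 CPM (SD, n = 4), a 2.96-fold higher mean after T4. The difference of gene42841 after T4 was 1.56, with 1.58 in set 1 and 1.55 in set 2, and edgeR's log2 fold change was 1.60 with a standard error of 0.07.

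Between these ends, most members were genes of modest level. Control means spread from 1.07 to 253.5 CPM around a median of 6.90, the mixture mean had a median of 7.15 and the T4 mean a median of 27.8 CPM. The ratio of the T4 to the control mean was lowest at 2.78 and highest at 13.0, its median was 3.65, and the quartiles were 3.28 and 4.32. A member at the middle of the order of control levels had 6.23, 10.5, 5.61 and 5.36 CPM in the control samples, 10.7, 8.34, 5.76 and 7.19 CPM in the mixture samples and 26.7, 27.6, 28.1 and 28.6 CPM in the T4 samples. Its T4 samples agreed closely, and control sample 2 stood above the other controls. At the lowest control level, a member had 1.17, 1.38, 1.52 and 0.188 CPM in the control samples and 3.43, 3.20, 4.58 and 3.81 CPM in the T4 samples, and one of its control values was under the floor.

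**Figure D2:**
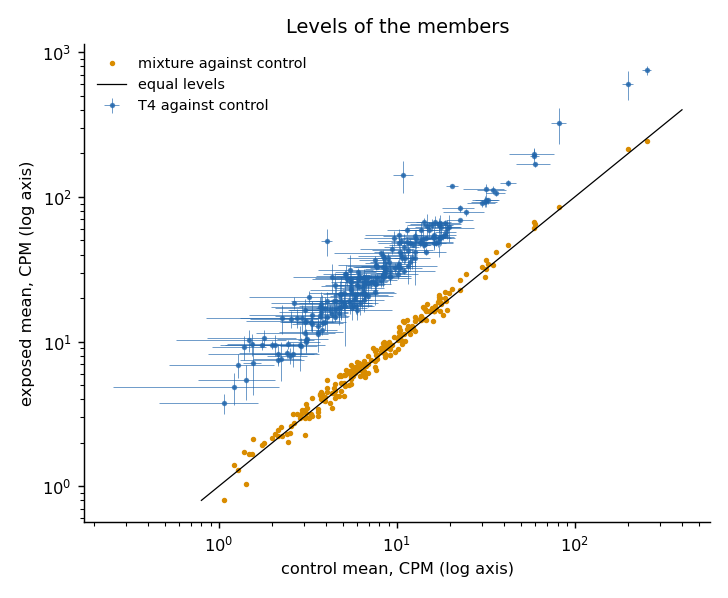
Mean level after exposure (vertical log axis, CPM) against the mean level in the control group (horizontal log axis, CPM) for each member, with T4 in blue and the mixture in orange, bars of 1 SD (n = 4 samples) for the control and T4 values, and a line of equal levels. Control means run from 1.07 to 253.5 CPM, and the T4 means, with a median of 27.8 CPM, lie above the line for every member.

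The members were not spread evenly over the levels. Among the expressed genes with a control mean of 3 to 10 CPM, 2.28% were members (116 genes), against 0.756% of those of 1 to 3 CPM (26 genes), 0.881% of those of 10 to 30 CPM (62 genes) and 0.129% of those over 30 CPM (14 genes). The median ratio of the T4 to the control mean was 4.58 in the lowest class and then 3.83, 3.50 and 3.00 in the classes above it. The added 0.5 CPM understates the change of low genes, so that a gene of 1 to 3 CPM needed a larger ratio to enter.

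The lowest T4 sample was at least 2 times the highest control sample in 186 members (85.3%, against 1.03% of the expressed genes). It was at least 2 times the highest mixture sample in 197 (90.4%, against 1.23%). In all 218, every T4 sample was above every mixture sample, which the limits of the selection nearly imply, and which held for 19.1% of the expressed genes. At the edge of the selection, the smallest T4 difference of a member was 1.50165 and the largest of a gene left out was 1.49611. Within 0.1 above the limit there were 44 members and within 0.1 below it 33 genes that met the other conditions. The member with the smallest gap had a lowest T4 sample only 1.18 times its highest control sample.

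**Figure D3:**
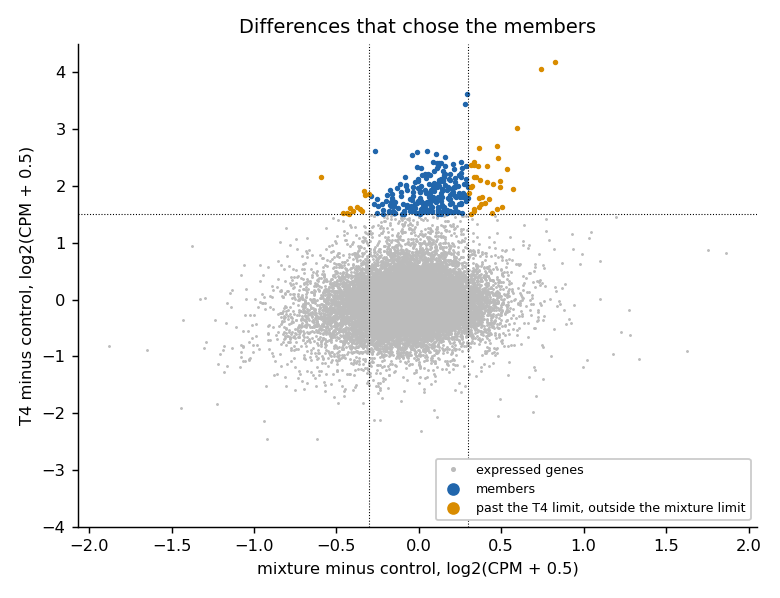
Difference from the control group after T4 (vertical axis) against the difference after the mixture (horizontal axis), both on the log2(CPM + 0.5) scale, for the 26401 expressed genes in grey, the 218 members in blue and the 47 genes past the T4 limit but outside the mixture limit in orange, with the limits as dotted lines. The plot shows the values that chose the members, whose T4 differences run from 1.502 to 3.61.

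The limit on the mixture removed 47 of the 265 genes with a T4 difference of at least 1.5, of which 35 were higher and 12 lower after the mixture. Their differences after the mixture ran from −0.59 to 0.82 and those after T4 from 1.51 to 4.18 with a median of 1.91. Near the limit, 25 members lay within 0.05 inside and 15 genes within 0.05 outside. Within the limit the members lay more often above 0 than below. After the mixture 153 members (70.2%) had a difference above 0, against 45.0% of the expressed genes, with a median of 0.09 against −0.02. The mixture and T4 differences share the control samples, and low values in these raise both differences. Without control sample 2 the median of the members after the mixture was 0.20, with 187 above 0, and without mixture sample 7 it was 0.20, with 185 above 0. Without any other control or mixture sample it was between 0.01 and 0.07. Leaving out a high control or a low mixture sample raises this difference by construction.

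By edgeR's quasi-likelihood test, 0.52% of all genes tested differed between the mixture and the control at an adjusted p-value under 0.05, and 0 members did, a contrast that the selection had used. In no member did the 4 mixture samples lie apart from the 4 control samples, against 2.04% of the expressed genes with all mixture samples above and 7.68% with all below. At an unadjusted p under 0.05 there were 8 members (3.67%, against 15.5% of all genes tested), and DESeq2, which called 1.66% of its genes, called 0 members. This count rested on control sample 2 and mixture sample 7. Without control sample 2 there were 41 members (18.8%, against 14.7% of all genes tested) and without mixture sample 7 there were 26 (11.9%, against 11.8%), both with 0 members past the adjusted threshold. Without any other sample there were 3 to 7 (1.38% to 3.21%, against 12.0% to 16.4% of all genes tested). With the set as a factor in the fit, 0.394% of all genes were called higher and 1.91% lower after the mixture, and still 0 members. In that fit 11 members had an unadjusted p under 0.05 (5.05%, against 19.8% of all genes tested).

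The SD between the samples of a group was compared with that of expressed genes of the same level. In the control and mixture groups the members had the larger median SD, a gap that narrowed or turned without control sample 2 and mixture sample 7. For control means of 10 to 30 CPM, the median SD of log2(CPM + 0.5) between the 4 samples was 0.28 over the members and 0.16 over the expressed genes, and 54 of 62 members lay above the latter. For 3 to 10 CPM it was 0.34 against 0.26, with 88 of 116 members above. In the mixture group the median SD for 10 to 30 CPM was 0.30 against 0.15, with 55 of 62 members above. In the T4 group it was 0.15 against 0.16 for 10 to 30 CPM, with 49 of 103 members above, 0.12 against 0.10 for 30 to 100 CPM, with 50 of 83, and 0.11 against 0.09 over 100 CPM, with 8 of 12. Without control sample 2 the control values were 0.15 against 0.15 for 10 to 30 CPM, with 32 of 62 members above, and 0.21 against 0.25 for 3 to 10 CPM, with 39 of 116. Without mixture sample 7 the mixture value for 10 to 30 CPM was 0.18 against 0.14, with 42 of 62 members above. Leaving out the farthest sample of a group lowers its SD by construction. The selection asks for no overlap between T4 and control samples, which limits the spread in both of these groups, but does not use the spread in the mixture group.

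Among the controls, sample 2 was most often the highest in the members. It was above sample 1, of the same group and set, in 197 members (90.4%, against 51.4% of the expressed genes), with a median difference of 0.52. Mixture sample 8 was above mixture sample 7 in 195 members (89.4%, against 55.8%), with a median of 0.34. The other 4 pairs of the same group and set had medians between −0.09 and 0.02 over the members. In 23 members control sample 2 was a single high outlier by Dixon's test (10.6%, against 0.992% of the expressed genes). Mixture sample 7 was a single low outlier by that test in 5 members (2.29%, against 0.583%). What the higher level in control sample 2 and the lower level in mixture sample 7 came from was not tested.

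The same sample differences were seen among expressed genes that are not members, ordered by their response to T4 in the samples of the other set. Of the 341 genes with a T4 difference of at least 1.5 in set 2, 209 were members. In the other 132, sample 2 was above sample 1 by a median of 0.31, and 81.8% of these genes were above 0. The median was 0.17 for the 363 genes of 1 to 1.5 that are not members, 0.08 for those of 0.5 to 1 and −0.08 for those under −1. Of the 208 genes with a T4 difference of at least 1.5 in set 1, 156 were members. In the other 52, sample 8 was above sample 7 by a median of 0.29, and 75% were above 0. It was 0.19 for the 234 genes of 1 to 1.5 that are not members, 0.10 for those of 0.5 to 1 and −0.10 for those under −1. In the remaining 4 pairs the genes of at least 1.5 that are not members had medians between −0.05 and 0.01. The 2 pairs were singled out after their values were seen, and the samples compared did not enter the T4 difference that ordered the genes, though they did enter the selection of the members that were set aside.

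**Figure D4:**
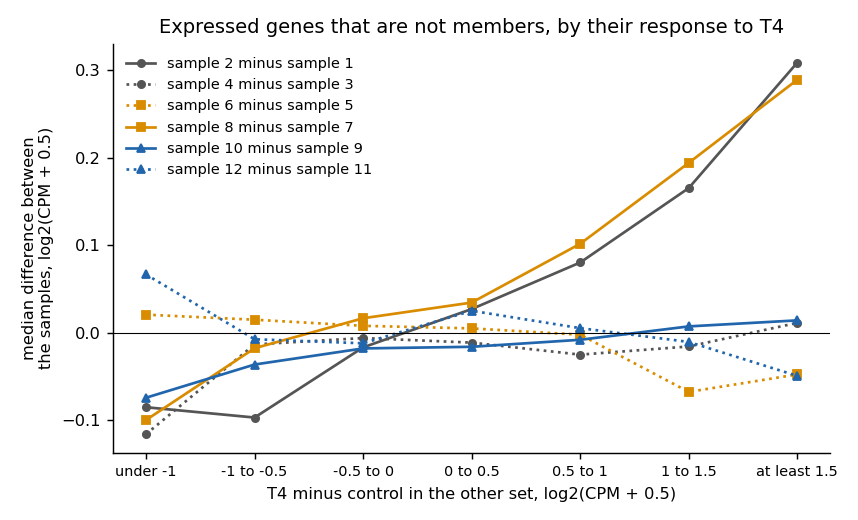
Median difference between the samples of the same group and set (vertical axis, log2(CPM + 0.5)) for the expressed genes that are not members, in 7 classes of the T4 difference measured in the other set (horizontal axis, log2(CPM + 0.5)), with a line for each of the 6 pairs of samples. In the class of at least 1.5, sample 2 is above sample 1 by 0.31 and sample 8 above sample 7 by 0.29, and the other pairs lie between −0.05 and 0.01.

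In most members the T4 difference was larger in set 2 than in set 1. The selection required all 4 T4 samples above all 4 control samples, so a difference above 0 in each set was fixed in advance. The median T4 difference of the members was 1.67 in set 1 and 2.03 in set 2, against −0.07 and −0.03 over the expressed genes. It was larger in set 2 for 197 members (90.4%, against 55.8% of the expressed genes). In 216 members (99.1%, against 1.59%) it was at least 1 in both sets. At least 1.5 was reached in set 1 by 156 members (71.6%, against 0.788%) and in set 2 by 209 (95.9%, against 1.29%). In both sets 147 members (67.4%, against 0.678%) reached it. The selection used the values behind these counts, which are a description. Set 1 holds control sample 2. Without it the median T4 difference in set 1 was 1.92, and without control sample 1 in its place it was 1.41.

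By edgeR's test of the interaction of T4 with the set, 0.0% of all genes tested and 0 members had an adjusted p-value under 0.05, with 34 members at an unadjusted p under 0.05 (15.6%, against 8.53% of all genes tested). This count followed single samples, with 107 members (49.1%, against 9.70% of all genes tested) without control sample 1 and 18 (8.26%, against 7.42%) without control sample 2. There were 22 (10.1%, against 8.61%) without T4 sample 9 and 19 (8.72%, against 5.93%) without T4 sample 11. Without any other sample there were 25 to 42 (11.5% to 19.3%, against 6.39% to 11.1%). The fitted difference between the sets was above 0, a larger response in set 2, in 194 members. Its median on the log2 scale was 0.34 over the members and −0.005 over all genes tested, from 2 samples per group and set. DESeq2 called 0.154% of its genes and 2 members, and edgeR without a filter on low counts 0.203% and 1 member. Each member called had the larger response in set 2. In that direction DESeq2 called 0.00515% of its genes and edgeR without a filter 0.0566%. In the other direction they called 0.149% and 0.147%, with 0 members. The pair called by DESeq2 were the members with the next highest control levels after gene42841. The first of them was at 179.6, 197.4, 205.8 and 209.1 CPM in the control samples, at 207.8, 203.8, 230.0 and 217.0 CPM in the mixture samples and at 466.5, 511.6, 719.9 and 722.9 CPM in the T4 samples. Its control and mixture samples were close together, and its T4 samples of set 2 were well above those of set 1. The other was at 71.7, 79.9, 88.9 and 85.4 CPM in the control samples and at 248.5, 239.4, 400.9 and 398.8 CPM in the T4 samples, the same order. Their T4 differences were 1.37 and 1.68 in set 1 and 1.80 and 2.19 in set 2 (DESeq2, adjusted p = 0.0327 and 0.0273). The sets had been separated on these same counts, and the lack of overlap asked of T4 and control samples limits this interaction. The counts and p-values for the interaction are thus a description.

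**Figure D5:**
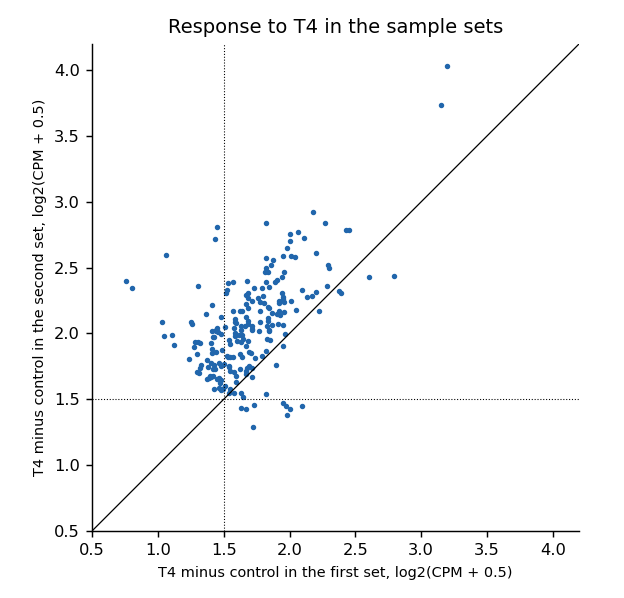
Difference between T4 and control samples in set 2 (vertical axis) against that in set 1 (horizontal axis), both on the log2(CPM + 0.5) scale with 2 samples per group and set, for each of the 218 members, with a line of equal differences and dotted lines at 1.5. Most points are above the line, with 197 members larger in set 2, and 147 members reach 1.5 in both sets.

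When the same limits were applied to the samples of only one set, the genes chosen were also higher after T4 in the samples that had not chosen them. In this paragraph the expressed genes are those with a control mean of at least 1 CPM in the set that chose. There were 26416 for set 1 and 26108 for set 2. Set 1 chose 143 genes with a median T4 difference of 1.73. In set 2 their median was 2.08, and 130 of them (90.9%) reached 1.5, against 1.30% of the expressed genes. Set 2 chose 218 genes, of which 175 were members, with a median T4 difference of 1.97. In set 1 their median was 1.59, and 128 of them (58.7%) reached 1.5, against 0.778% of the expressed genes. The share with a small mixture difference in the samples read was close to or under that of other genes. It was under 0.3 in set 2 for 72.7% of the genes chosen in set 1, against 73.0% of the expressed genes, and under 0.3 in set 1 for 76.6% of those chosen in set 2, against 84.1%. The former pair turned to 76.0% against 73.2% with TMM-scaled CPM and to 82.0% against 79.96% with a pseudocount of 2. The median mixture difference in the samples read was 0.03 for the genes chosen in set 1 and 0.13 for those chosen in set 2. Of the 143 genes chosen in set 1 and the 218 chosen in set 2, 96 met all the limits in both. Among genes with a control mean of at least 1 CPM in set 1, 0.810% met all the limits in set 2. Among those of set 2, 0.540% met them in set 1.

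The selection limited the mixture difference over both sets together, but not within a set. The differences of the members after the mixture ran from −0.545 to 0.83 in set 1 and from −0.63 to 0.93 in set 2. Their median was 0.12 in set 1 and 0.03 in set 2. In 95 members (43.6%, against 24.8% of the expressed genes) the mixture difference was above 0 in both sets, and in 31 (14.2%, against 36.6%) below 0 in both. Here too the control samples are those that chose the members. It was of opposite sign in 92 (42.2%, against 38.6%) and within 0.3 of 0 in both sets in 147 (67.4%, against 64.5%). The latter shares were close to those of the expressed genes. Without control sample 2 the median in set 1 was 0.37, and without mixture sample 7 the median in set 2 was 0.20. By edgeR's interaction test of the mixture with the set, 0.0% of all genes tested and 0 members had an adjusted p-value under 0.05, with 5 members at an unadjusted p under 0.05 (2.29%, against 8.11% of all genes tested). DESeq2 called 0 members and 0.00515% of its genes. Without control sample 2 there were 45 members at an unadjusted p under 0.05 (20.6%, against 8.46% of all genes tested) and without mixture sample 8 there were 14 (6.42%, against 6.95%). Without any other sample there were 4 to 9 (1.83% to 4.13%, against 5.84% to 8.64%). In each of these fits 0 members were past the adjusted threshold. Since the sets had been separated on these same counts, the counts for this interaction are a description too.

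Averaged over the groups, most members had lower values in set 2. The median difference between set 2 and set 1 was −0.14 over the members and −0.01 over the expressed genes, with 170 members lower (78.0%, against 52.2%). The members' median was −0.05 without control sample 2, −0.07 without mixture sample 7 and −0.22 without control sample 1. By group it was −0.22 in the control, −0.29 in the mixture and 0.12 in the T4 samples, so the T4 samples went the other way. Without control sample 2 the control value was 0.01, and without mixture sample 7 the mixture value was −0.15. By edgeR's quasi-likelihood test with the group in the fit, 6.94% of all genes tested were lower and 6.42% higher in set 2 at an adjusted p-value under 0.05. The sets had been separated on these same counts, so the calls and p-values between them, here and for single members, are a description. Of the members 17 were called, 11 lower (5.05%) and 6 higher (2.75%), both shares under those of all genes. DESeq2 called 14 lower (6.42%, against 4.77% of its genes) and 6 higher (2.75%, against 4.66%), so the share of lower members was above that of all genes there, as it was in edgeR without a filter (7.34%, against 5.30%), without control sample 1 (6.42%, against 5.38%) and without T4 sample 11 (8.26%, against 6.28%). The balance turned to 5 lower and 8 higher without control sample 2, to 4 lower and 9 higher without mixture sample 7 and to 5 lower and 7 higher without mixture sample 5. Leaving out control sample 4, mixture sample 6 or mixture sample 8 left 10 called, 5 lower and 5 higher. Without control sample 3 there were 6 lower and 6 higher, and leaving out T4 sample 11 gave 23 called.

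The member with the largest decrease between the sets had a log2 fold change of −0.94 (standard error 0.19, edgeR, adjusted p = 0.00487). It was at 3.79 and 5.70 CPM in the control samples of set 1 and at 1.33 and 2.54 CPM in those of set 2, at 4.89 and 4.08 and then 1.58 and 1.80 CPM in the mixture samples, and at 16.8 and 19.0 and then 10.5 and 15.1 CPM in the T4 samples. In all 3 groups the samples of set 2 were below those of set 1. The member with the largest increase, of 1.05 (standard error 0.16, edgeR, adjusted p = 0.000472), was at 3.52, 3.03, 6.08 and 7.99 CPM in the control samples, at 4.99, 2.32, 5.57 and 6.85 CPM in the mixture samples and at 9.46, 11.6, 24.9 and 24.3 CPM in the T4 samples. Its samples of set 2 were above those of set 1 in every group, and it was also the member with the smallest gap between T4 and control samples.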

How the data were processed

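The deposited values are counts, the whole numbers of reads that the authors assigned to each gene of each sample, without normalization. The authors removed duplicate reads, trimmed 11 bases from the 5′ and 1 from the 3′ end, kept reads of 64 bases, mapped them with Bowtie2 to release 9.2 of the genome, kept uniquely mapped reads and counted them with HTSeq-count. The submitters' processing notes list cutadapt (version 1.15), FastQC (0.11.2), Bowtie2 (2.2.4) and HTSeq (0.9.1). The deposited control tables are named with the 5′ trimming listed a second time, those of the exposed samples with it once, and the effect of this was not tested. The libraries were stranded, but the strand setting of the counting is not given in the sources used here, so overlapping genes on opposite strands are uncertain. The 5 totals that name no gene, 38.3% to 42.2% of the reads, were left out.

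CPM used the sum of the gene counts. Tests were edgeR's quasi-likelihood test (version 4.0.16, R 4.3.3) with TMM, filterByExpr (minimum count 10) and Benjamini-Hochberg adjustment over all genes tested, in 1 fit of the 12 samples by group, in a fit of group and set, and in a fit with their interaction, which left 6 residual degrees of freedom. DESeq2 (version 1.42.0), RLE size factors, no filter, TMM-scaled CPM, pseudocounts of 0.1 and 2 and leaving out each sample were alternatives, and the medians within each set, the alternatives for the median difference between the sets and for the SD within groups, and the genes that are not members were added after seeing the data. The standard error given with an edgeR fold change is its absolute log2 value divided by the square root of the F statistic of the test. The fits were tested on simulated data. Replicates were not copies of one library (chi-square per degree of freedom 3.02 to 6.92). The members and lists were chosen with earlier results of these data known. The rule for members given by number was the largest T4 difference and the highest control mean. Lists of named genes and cell type markers could not be used, since 0 gene numbers were matched to names. Figures were drawn with matplotlib (version 3.10.9).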

Additional observations from a re-analysis of the deposited data

Results flagged for a closer look

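Control sample 2 was far from the other controls on both summaries of the members. In the share of reads on the members (0.318%, against 0.237%, 0.249% and 0.247%), its gap to the nearest control was 0.845 of the whole range of the group. In the median of the members against the control mean (0.36, against −0.13, −0.11 and −0.12), that gap was 0.966 of the range. Both are above Dixon's critical value for 4 samples, and chance passes it in about 1 of 20 groups. The check was run on both summaries and on both members given by number, in each group, and nothing else passed it. That rate is thus for a single check, not for all of them. The 2 summaries come from the same genes and are not independent.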

How the results depend on the processing

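The median T4 difference of the same 218 members, 1.81, was 1.63 with a pseudocount of 2, 1.67 in set 1 alone and 2.03 in set 2 alone, and ranged from 1.78 to 1.95 when each sample was left out, with the highest value without control sample 2. The members called between the sets, 17, ranged from 10 to 23 when each sample was left out. The causes were not tested. For the interaction of T4 with the set, 0 members were called by edgeR, 1 without a filter on low counts and 2 by DESeq2. Applying the selection anew gave 165 genes with a pseudocount of 2, of which 152 were among the 218. It gave 175 without control sample 2 (150 shared) and 168 without mixture sample 7 (160 shared). The other alternatives gave 198 to 226. The excess of lower over higher calls between the sets, 11 against 6, turned without control sample 2, mixture sample 5 or mixture sample 7. Without control sample 3, control sample 4, mixture sample 6 or mixture sample 8 the calls were equal in both directions. The excess remained without control sample 1 or any T4 sample. The medians of the T4 and mixture differences, and of the set difference averaged over the groups, kept their sign in all alternatives run. The median set difference within the controls did not, at −0.22 with and 0.01 without control sample 2. No paired analysis was possible because the samples are numbered 1 to 12 and no number recurs between the groups. The differences of the 3 members with a sample at or under 3 counts are uncertain, and the values within a set rest on 2 samples per group.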
